A study of Mus musculus with 60 samples.

Results

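The 32 genes described here encode lysosomal hydrolases, lysosomal membrane proteins, subunits of the lysosomal proton pump, and 3 transcription factors. The factors are Tfeb, Tfe3 and Mitf, of the MiT/TFE family. They were chosen by gene symbol, and all 32 were found among the 54232 gene IDs of the mouse count table. By role they fall into 9 cathepsins and other proteases, 6 glycosidases, 6 genes of lipid handling, 4 of membrane proteins and progranulin, 4 of the proton pump and a channel, and the 3 factors. Their RNA was measured by RNA-seq in visceral fat, subcutaneous fat and liver.

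In each tissue there were 4 groups of 5 libraries: Western diet with NaKtide, Western diet without NaKtide, control diet with NaKtide, and control diet without NaKtide. The Western diet held 42% fat and the control chow 11% fat, and mice ate their diet for 12 weeks. NaKtide is a peptide inhibitor of signalling through the Na,K-ATPase and the kinase Src; it was expressed from a transgene in mice labelled Tg, induced by doxycycline at 300 mg/kg of diet. The labels do not say whether mice without NaKtide carried the transgene or ate doxycycline, so NaKtide and doxycycline cannot be told apart. The promoter that drove the transgene, the strain, sex and age were not stated in the labels, and the transgene's own RNA was not analysed here. The design speaks of 5 mice per group, without saying whether the same mice gave all tissues; p-values measure the spread between these libraries.

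Lysosomes break down proteins, glycans and lipids with acid hydrolases, in a lumen acidified by a proton pump, the V-ATPase. Tfeb, Tfe3 and Mitf are held in the cytoplasm by mTORC1 when nutrients are plentiful; on starvation or lysosomal stress they enter the nucleus and bind a short palindromic element in the promoters of lysosomal genes. Since their activity depends on where the proteins are, the amount of their RNA does not measure it. In fat tissue, macrophages that take up lipid from adipocytes are known for abundant lysosomes, and cathepsin S and cathepsin K are best known from macrophages and from bone-resorbing cells.

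That element is TCACGTGA, known as the CLEAR core, and it holds the E-box CACGTG. Promoters of 28 of the 32 genes were found in RefSeq (GRCm38.p6, from 250 bases before to 50 bases after the start of transcription); Ctsb, Npc1, Asah1 and Atp6v1b2 had no entry. TCACGTGA was found in 5 of the 28 (17.9%), against 1.12% of all 27025 symbols with a promoter: Ctsa, Ctsd, Gla, Atp6v1a and Mcoln1. CACGTG was found in 9 of the 28 (32.1%), against 8.09% of all: the same 5 and Ctsl, Glb1, Lamp1 and Lgmn. Each motif reads the same on both strands. Stretches of 90 bases are shown for 4 promoters that hold a motif and for Ctss, the gene with the largest changes below, whose promoter held neither. They run in the direction of transcription, and capitals mark TCACGTGA, or CACGTG where the flanking bases differ.
Ctsd, chr7:142387868-142387957, minus strand: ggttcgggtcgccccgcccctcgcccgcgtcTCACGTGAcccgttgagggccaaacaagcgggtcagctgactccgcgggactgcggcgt
Mcoln1, chr8:3500429-3500518, plus strand: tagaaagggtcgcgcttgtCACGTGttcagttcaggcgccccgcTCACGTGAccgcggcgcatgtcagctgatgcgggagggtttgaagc
Lamp1, chr8:13159071-13159160, plus strand: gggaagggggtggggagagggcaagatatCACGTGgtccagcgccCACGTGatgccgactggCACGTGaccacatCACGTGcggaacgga
Atp6v1a, chr16:44139335-44139424, minus strand: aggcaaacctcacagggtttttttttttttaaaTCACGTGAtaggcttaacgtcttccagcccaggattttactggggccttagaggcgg
Ctss, chr3:95526696-95526785, plus strand: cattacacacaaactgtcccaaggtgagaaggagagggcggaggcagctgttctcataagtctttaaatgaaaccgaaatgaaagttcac
In the Lamp1 promoter CACGTG stood 4 times, beginning 61, 45, 28 and 15 bases before the start. A match is a description of the letters and says nothing of binding.

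Some libraries stood apart from their groups, and their values are given here once. In visceral fat, 17 markers of epididymis and testis summed to over 1000 CPM (counts per M of library counts, after TMM scaling between libraries) in 6 of 20 libraries: libraries 2 and 5 of Western diet with NaKtide, library 1 of control diet with NaKtide, and libraries 3, 4 and 5 of control diet. Library 5 of control diet visceral fat also had an adipocyte marker sum of 1396 CPM, against 10535 to 31123 CPM in the other 4. In subcutaneous fat, skeletal muscle markers summed to 87.3 to 272 CPM on Western diet and to 8502 to 64859 CPM on control diet, and they reached 279928 CPM in library 2 of control diet with NaKtide. In liver, muscle markers reached 386 and 751 CPM in control diet libraries 2 and 4. Liver libraries 1 of both Western diet groups lay nearer the opposite group for several genes below, among them Lamp1, Lamp2 and Ctsl; whether these libraries were exchanged was not tested, and an exchange would change the liver values for NaKtide on Western diet and the interaction. In visceral fat, control diet with NaKtide lay close to Western diet without it, and Western diet with NaKtide close to control diet without it, with 2 and 0 of 17235 genes called between them, as given below. Whether group labels were exchanged in this tissue was not tested. Depending on the groups, an exchange could remove visceral differences or turn their direction. If the 2 NaKtide groups were exchanged, the NaKtide comparisons would become the ones just named, which called none of the 32 genes. Visceral values are given here by the labels. Adipocyte markers were present in every fat library and hepatocyte markers in every liver library. The libraries held between 3.18 and 9.78 M counts (median 6.41 M).

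Levels of different genes were compared on the deposited FPKM scale, which is per length of transcript. On control diet, Psap, which encodes the precursor of the saposins that present lipids to hydrolases, had the highest FPKM in visceral fat (353 ± 85.8 FPKM, SD, n = 5) and in subcutaneous fat (508 ± 121 FPKM). In liver the highest was Ctsz, the carboxypeptidase cathepsin Z, at 364 ± 86.5 FPKM, followed by the lysosomal membrane protein gene Lamp1 at 236 ± 75.7 FPKM. Psap in liver was at 191 ± 24 FPKM and the aspartic protease gene Ctsd at 182 ± 28.5 FPKM, which lie within 1 SD of each other. Ctsd was second in both fats, at 209 ± 72.8 FPKM in visceral and 400 ± 185 FPKM in subcutaneous fat. The 3 factors stood in the lower part of the order. Tfe3 was at 7.09 ± 1.55 FPKM in visceral fat, 5.43 ± 0.375 FPKM in subcutaneous fat and 3.88 ± 0.615 FPKM in liver. Tfeb was at 3.58 ± 1.06, 7.77 ± 2.55 and 3.93 ± 0.543 FPKM in the same order. Mitf had the lowest mean of the 32 in all 3 tissues, at 0.588 ± 0.413, 1.06 ± 0.278 and 0.357 ± 0.0499 FPKM; in liver Ctsk, at 0.367 ± 0.517 FPKM, did not differ from it beyond its spread.

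**Figure D1:**
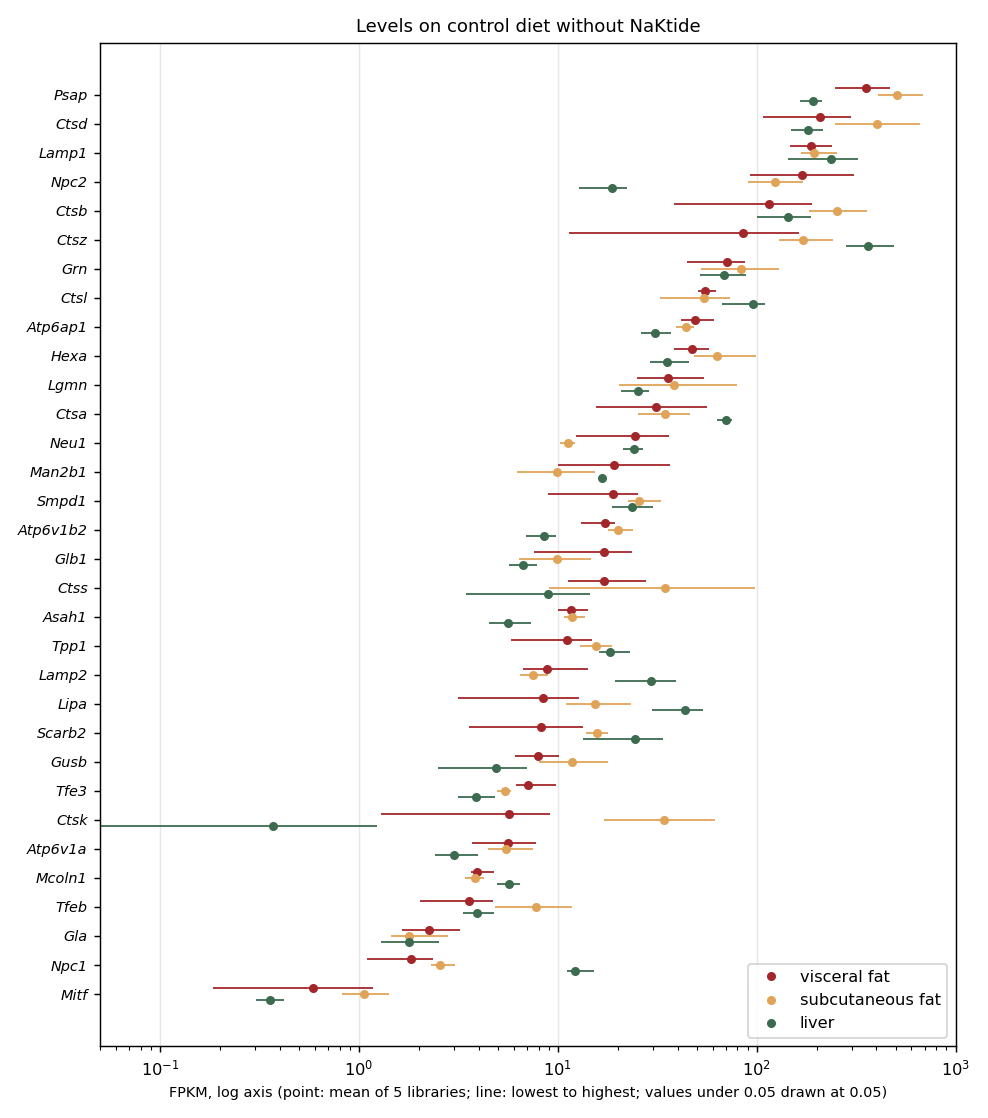
Level of each of the 32 genes on control diet without NaKtide, in FPKM on a log axis, in visceral fat, subcutaneous fat and liver. Points are means of 5 libraries and lines run from the lowest to the highest library (values under 0.05 are drawn at 0.05); Psap, Ctsd and Lamp1 are near the top in all 3 tissues and Mitf has the lowest mean.

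Over all 20 libraries of a tissue, most of the 32 genes had overlapping FPKM ranges between liver and fat: 27 overlapped with visceral fat and 25 with subcutaneous fat. The share of all genes with overlapping ranges was not counted, so these counts do not set the 32 apart from other genes. The cholesterol exporters stood on opposite sides. Npc1, the membrane protein that moves cholesterol out of the lysosome, had a median of 13 FPKM in liver (11.2 to 16.6), against 2.37 FPKM in visceral fat (1.10 to 5.53) and 2.22 FPKM in subcutaneous fat (1.45 to 5.08). Npc2, the soluble protein that hands cholesterol to Npc1, had a median of 17.4 FPKM in liver (11.7 to 22.2), against 187 FPKM in visceral fat (92.5 to 307) and 150 FPKM in subcutaneous fat (70.2 to 255). Lamp2, a membrane protein of the lysosome, was also higher in liver, at a median of 29.9 FPKM (16.2 to 53.1), against 8.84 FPKM (6.49 to 14.7) in visceral and 6.68 FPKM (4.47 to 10.7) in subcutaneous fat. In liver Ctsk had 0 to 9 reads per library and was the single member that did not pass the filter on low counts there, so 31 genes were tested in liver and 32 in each fat.

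**Figure D2:**
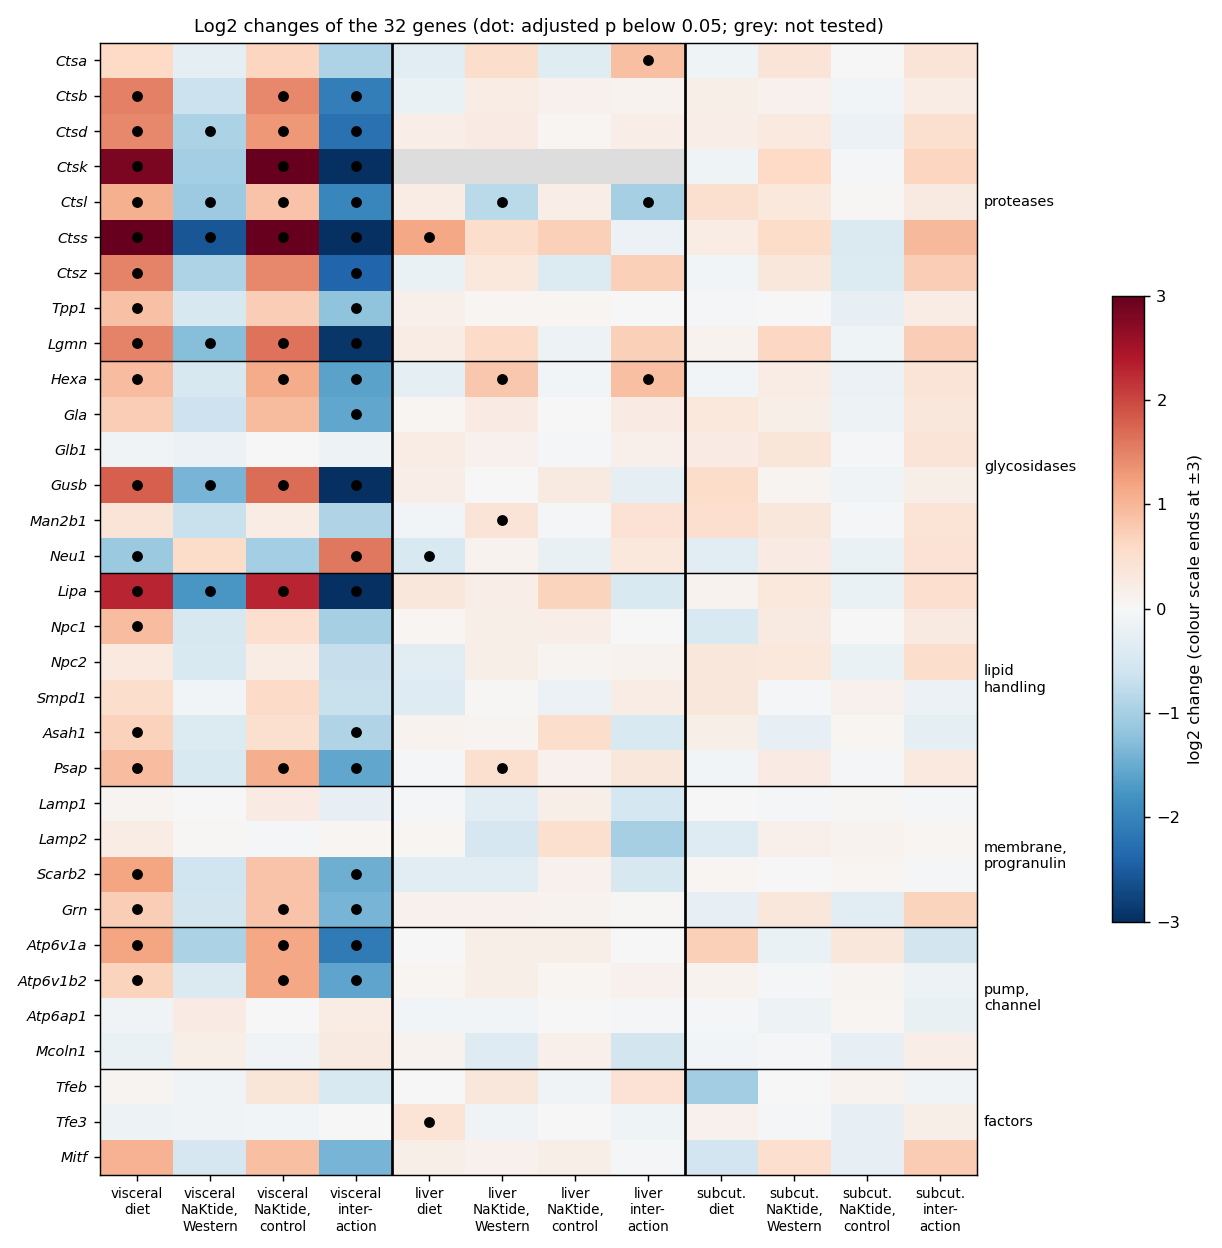
Log2 change of each gene (rows, by role) in each comparison (columns) of visceral fat, liver and subcutaneous fat; the colour scale ends at 3 in either direction, dots mark an adjusted p under 0.05, and grey marks Ctsk in liver, which was not tested. Dots crowd the 4 visceral columns (19, 6, 13 and 19 genes), against 3, 4, 0 and 3 in liver and none in subcutaneous fat.

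The first comparison in visceral fat was Western diet against control diet without NaKtide. On Western diet 18 of the 32 genes were higher and 1 was lower past an adjusted p of 0.05, where 10.5% of the 17235 genes tested were higher and 14.3% lower (edgeR's quasi-likelihood test, p adjusted over all genes tested). The median log2 change of the 32 was 0.81, against -0.22 over all genes tested. Among the proteases 8 of 9 were higher, among the glycosidases 2 of 6 with 1 lower, among the genes of lipid handling 4 of 6, among the membrane proteins and progranulin 2 of 4, and among the pump and channel genes 2 of 4. None of the 3 factors was called. By the same test 21 of the 32 (65.6%) had an unadjusted p under 0.05, against 41.6% of all genes tested. In 13 of the 32 genes, all 5 Western diet libraries were above all 5 control diet libraries. The share of all genes that were apart in this way was not counted.

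Ctss, which encodes the cysteine protease cathepsin S (chr3:95526786-95556403, GRCm38), changed most. It had 156, 219, 478, 222 and 204 CPM on Western diet, against 25.9, 34.4, 20.6, 48.5 and 18.4 CPM on control diet. The lowest Western diet library was far above the highest control diet library. The log2 change was 3.11 ± 0.41 (SE, adjusted p = 0.00016). Gusb, the β-glucuronidase of glycosaminoglycan breakdown (chr5:129989011-130003049), had 113, 140, 249, 151 and 148 CPM on Western diet, against 54.0, 58.7, 47.0, 35.5 and 34.2 CPM on control diet. These groups did not overlap either, and the log2 change was 1.80 ± 0.25 (adjusted p = 0.00022). Library 3 of Western diet was the highest for both genes.

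Ctsl, another cysteine protease, cathepsin L (chr13:64359337-64370890), had 791, 1000, 1058, 961 and 929 CPM on Western diet, against 457, 419, 491, 436 and 473 CPM on control diet. Its control diet libraries were among the most even of the set, and the log2 change was 1.06 ± 0.16 (adjusted p = 0.00041). Ctsd (chr7:142375911-142388038) had 1409, 2159, 1883, 1514 and 1574 CPM on Western diet, against 890, 700, 528, 726 and 296 CPM on control diet. The groups were apart, with the lowest value in control diet library 5, and the log2 change was 1.44 ± 0.24 (adjusted p = 0.00077). Lgmn, the asparaginyl endopeptidase legumain that processes cathepsins (chr12:102394084-102439813), had 219, 301, 439, 270 and 268 CPM on Western diet, against 73.8, 87.8, 169, 102 and 101 CPM on control diet. Again no libraries overlapped, and the log2 change was 1.49 ± 0.27 (adjusted p = 0.0017). Lipa, the acid lipase that frees fatty acids and cholesterol from the lipids brought to the lysosome (chr19:34492318-34527474), had 114, 103, 309, 136 and 115 CPM on Western diet, against 47.4, 48.3, 35.9, 17.3 and 11.0 CPM on control diet. Its log2 change was 2.28 ± 0.47 (adjusted p = 0.0036), and Western diet library 3 was far above its group.

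Of the other proteases, Ctsk was higher by a log2 change of 2.82 ± 0.66 (adjusted p = 0.008), Ctsb by 1.52 ± 0.37 (adjusted p = 0.01), Ctsz by 1.49 ± 0.46 (adjusted p = 0.031) and Tpp1, a tripeptidyl peptidase, by 0.88 ± 0.26 (adjusted p = 0.025). Ctsa, the protective protein of a glycosidase complex, had 0.61 ± 0.30 (adjusted p = 0.13). Among the glycosidases Hexa, a subunit of β-hexosaminidase, rose by 0.94 ± 0.19 (adjusted p = 0.0039). Neu1, the sialidase, was the single gene that fell, by 1.11 ± 0.33 on the log2 scale (adjusted p = 0.028). Neu1 had 47.2, 60.6, 51.0, 52.6 and 58.1 CPM on Western diet, against 70.6, 59.3, 181, 143 and 126 CPM on control diet. Its 3 highest values were those of the control diet libraries with epididymis and testis markers, and Neu1 was not called without those libraries. Gla, Glb1 and Man2b1, which cut α-galactose, β-galactose and α-mannose, were not called.

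In lipid handling, the ceramidase gene Asah1 rose by 0.70 ± 0.21 (adjusted p = 0.029), Psap by 0.93 ± 0.23 (adjusted p = 0.011) and Npc1 by 0.94 ± 0.27 (adjusted p = 0.022), beside Lipa. Smpd1, the acid sphingomyelinase, had 0.53 (adjusted p = 0.099) and Npc2 0.29 (adjusted p = 0.44). Among the membrane proteins, Scarb2, which carries glucocerebrosidase to the lysosome, rose by 1.18 ± 0.39 (adjusted p = 0.039), and Grn, which encodes progranulin, by 0.75 ± 0.21 (adjusted p = 0.019). The structural proteins of the lysosomal membrane were not called: Lamp1 had a log2 change of 0.09 and Lamp2 of 0.22. Of the proton pump, the catalytic subunit gene Atp6v1a rose by 1.19 ± 0.33 (adjusted p = 0.021) and Atp6v1b2 by 0.68 ± 0.21 (adjusted p = 0.03). The accessory subunit gene Atp6ap1 and the calcium channel gene Mcoln1 were not called.

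The genes with a promoter E-box were not set apart by their calls. Of the 9 with CACGTG, 4 were higher on Western diet, with a median log2 change of 0.75, and of the 19 matched genes without it, 10 were higher, with a median of 0.88. Ctss, Lipa, Ctsk and Gusb, the 4 largest rises, are in the second set.

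The next comparison was NaKtide against none on Western diet, which uses the same Western diet libraries. With NaKtide 6 of the 32 genes were lower and none was higher, where 6.95% of all genes tested were lower. The median log2 change was -0.49, against 0.03 over all genes. The 6 were Ctss, Gusb, Ctsl, Ctsd, Lgmn and Lipa, described above, and in each all 5 libraries with NaKtide were below all 5 without. Ctss had 78.9, 26.8, 54.4, 18.3 and 37.6 CPM with NaKtide, against the 156 to 478 CPM given above without it, a log2 change of -2.56 ± 0.40 (adjusted p = 0.00076). Gusb had 88.2, 55.8, 67.4, 49.2 and 42.5 CPM with NaKtide, against 113 to 249 CPM without, a log2 change of -1.40 ± 0.24 (adjusted p = 0.0017). Library 1 with NaKtide was the highest of its group for both genes.

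Ctsl had 480, 363, 577, 378 and 442 CPM with NaKtide, against 791 to 1058 CPM without, a log2 change of -1.08 ± 0.16 (adjusted p = 0.00063). Ctsd had 955, 704, 960, 923 and 895 CPM with NaKtide, against 1409 to 2159 CPM without, a log2 change of -0.94 ± 0.24 (adjusted p = 0.016). For Ctsl the nearest libraries of the 2 groups were at 577 CPM with NaKtide and 791 CPM without, and for Ctsd at 960 and 1409 CPM. Lgmn had 198, 117, 107, 78.6 and 112 CPM with NaKtide, against 219 to 439 CPM without, a log2 change of -1.29 ± 0.27 (adjusted p = 0.0062). Lipa had 92.9, 41.8, 47.3, 30.6 and 19.6 CPM with NaKtide, against 103 to 309 CPM without, a log2 change of -1.74 ± 0.46 (adjusted p = 0.02). For Lipa the gap between groups was narrow, 92.9 CPM in the highest library with NaKtide against 103 CPM in the lowest without, and the call was lost when Western diet library 3 or library 2 or 4 with NaKtide was left out (log2 changes over all such fits -2.17 to -1.35). No glycosidase other than Gusb, no membrane protein, no pump gene and no factor was called; Hexa had -0.49 ± 0.19 (adjusted p = 0.09) and Ctsb -0.64 ± 0.36 (adjusted p = 0.22).

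On control diet, NaKtide against none went the other way in visceral fat. With NaKtide 13 of the 32 genes were higher and none was lower, where 5.26% of all genes tested were higher; the median log2 change was 0.85, against -0.23 over all genes. This comparison shares its control libraries with that of diet. Ctss had 182, 298, 230, 316 and 220 CPM with NaKtide on control diet, against 18.4 to 48.5 CPM without, a log2 change of 3.08 ± 0.41 (adjusted p = 0.00033). Gusb had 107, 157, 132, 187 and 155 CPM with NaKtide, against 34.2 to 58.7 CPM without, a log2 change of 1.69 ± 0.25 (adjusted p = 0.00064). Library 4 with NaKtide was the highest for both genes.

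Lgmn had 266, 383, 257, 442 and 297 CPM with NaKtide on control diet, against 73.8 to 169 CPM without (1.63 ± 0.28, adjusted p = 0.0016). Ctsl had 683, 884, 787, 1007 and 788 CPM with NaKtide, against 419 to 491 CPM without (0.87 ± 0.16, adjusted p = 0.0027). Ctsd had 1275, 1797, 1480, 1686 and 1503 CPM with NaKtide, against 296 to 890 CPM without (1.30 ± 0.24, adjusted p = 0.0026). In all 3 genes every library with NaKtide was above every library without. Lipa had 103, 169, 125, 241 and 140 CPM with NaKtide, against 11.0 to 48.3 CPM without (2.28 ± 0.47, adjusted p = 0.0057). Hexa (chr9:59539540-59565109) had 222, 311, 237, 288 and 242 CPM with NaKtide on control diet, against 132, 114, 103, 114 and 135 CPM without, a log2 change of 1.12 ± 0.20 (adjusted p = 0.0019). Atp6v1b2 had 173, 274, 221, 374 and 257 CPM with NaKtide, against 129, 123, 120, 132 and 81.3 CPM without, a log2 change of 1.15 ± 0.21 (adjusted p = 0.0026). Ctsk, Ctsb, Psap, Grn and Atp6v1a were also higher, by 2.98, 1.44, 1.10, 0.84 and 1.16 on the log2 scale. All 13 were among the 18 genes that were higher on Western diet, in a comparison with the same control libraries. The share of all genes called higher in both was not counted. The other 5, Asah1, Ctsz, Npc1, Scarb2 and Tpp1, were called for diet and not for NaKtide on control diet, a difference that was not itself tested.

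**Figure D3:**
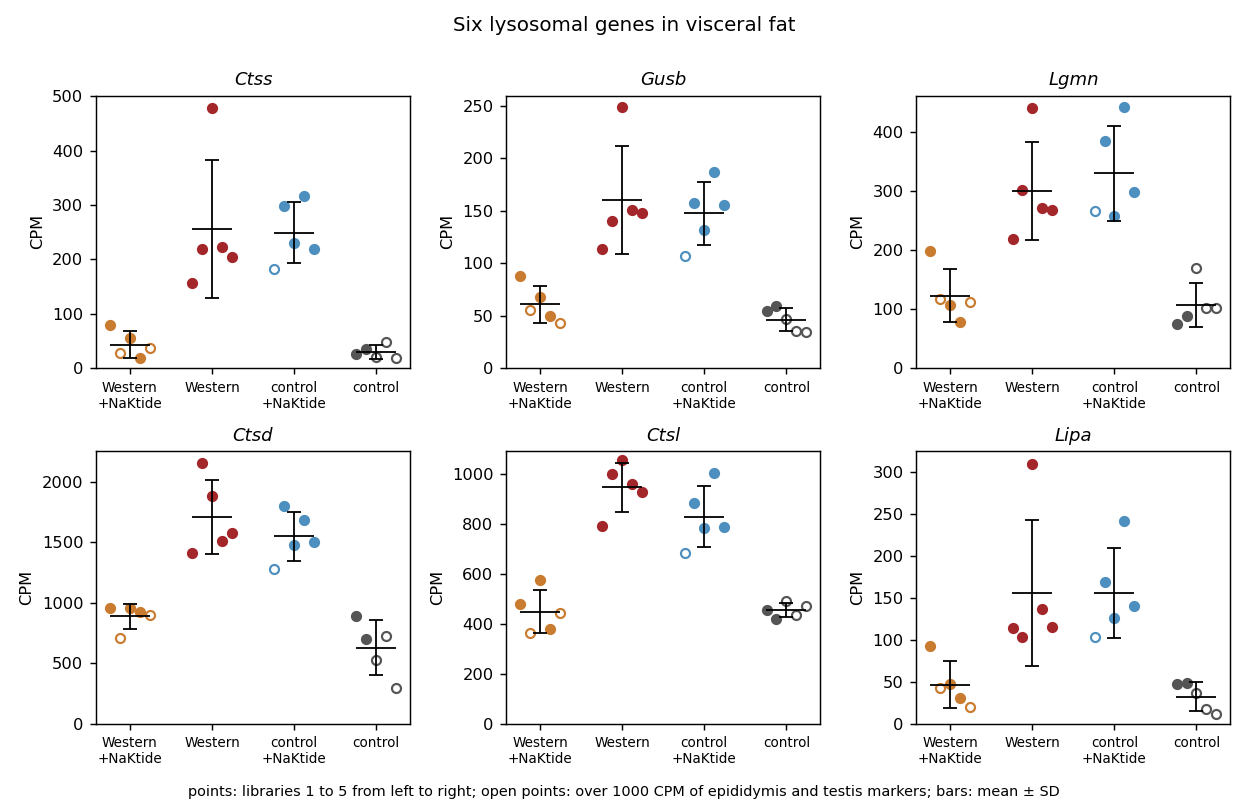
Visceral fat: CPM of Ctss, Gusb, Lgmn, Ctsd, Ctsl and Lipa in every library, by group; bars are mean ± SD of 5 libraries and open points are libraries with over 1000 CPM of epididymis and testis markers. In each panel the groups Western diet without NaKtide and control diet with NaKtide are high, as for Ctss at 156 to 478 and 182 to 316 CPM, and the other groups are low.

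The interaction asks whether the effect of NaKtide differed between diets. It was called in 19 of the 32 genes in visceral fat. The NaKtide effect on Western diet was lower in 18 and higher in 1, Neu1. The Neu1 call was lost without the 6 libraries that held epididymis and testis markers. Over all genes tested, with all libraries, 13.4% were lower and 18.8% higher. The median log2 difference was -1.39, against 0.30 over all genes. For Ctss it was -5.64 ± 0.57 (adjusted p = 4.9e-06), for Gusb -3.09 ± 0.35 (adjusted p = 1.2e-05), for Ctsl -1.95 ± 0.23 (adjusted p = 1.6e-05), for Lgmn -2.92 ± 0.39 (adjusted p = 4.6e-05), for Ctsd -2.25 ± 0.34 (adjusted p = 0.00014) and for Lipa -4.02 ± 0.66 (adjusted p = 0.00031). By role, 8 of 9 proteases, 3 of 6 glycosidases, 3 of 6 genes of lipid handling, 2 of 4 membrane proteins and progranulin, 2 of 4 pump and channel genes and none of the 3 factors were lower. Ctss, Gusb, Ctsl, Ctsd, Lgmn and Lipa were called in all 4 visceral comparisons, and 12 of the 32 genes in none. These comparisons share their groups, and the shares of all genes called in all 4 or in none were not counted.

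Groups that differ in both diet and NaKtide gave almost no calls. Between Western diet with NaKtide and control diet without it, none of the 32 genes was called and 5 had an unadjusted p under 0.05, where 0% of all genes tested were called and 10.6% had such a p. Between control diet with NaKtide and Western diet without it, none of the 32 was called and 1 had an unadjusted p under 0.05, where 0.0116% of all genes tested were called and 6.26% had such a p. These comparisons, by edgeR, were added after the values had been seen. Ctss, for example, had 43.2 ± 24.1 CPM on Western diet with NaKtide and 29.5 ± 12.3 CPM on control diet without it, and 249 ± 55.9 CPM on control diet with NaKtide and 256 ± 127 CPM on Western diet without it (SD, n = 5 each).

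Markers of macrophages moved with these genes, and those of several other cell types are given beside them. The summed CPM of 14 macrophage markers, all above 0 in every visceral library, was 522 to 1687 on Western diet with NaKtide, 2051 to 4242 on Western diet, 2263 to 3201 on control diet with NaKtide, and 372 to 887 on control diet. The groups of the diet comparison and of both NaKtide comparisons did not overlap (exact permutation test, two-sided, p = 0.00794, the smallest possible with 5 against 5; adjusted p = 0.0454 over 120 marker tests). In each of the 4 visceral comparisons 12 of the 14 markers were called, in the direction of the lysosomal genes. Western diet library 3, the highest for Ctss, Gusb and Lipa, also had the highest macrophage sum, and library 1 was the highest of Western diet with NaKtide. Fibroblast progenitor markers summed to 3327 ± 1075 CPM on Western diet and 3102 ± 900 CPM on control diet with NaKtide, against 1071 ± 626 CPM on control diet; on Western diet with NaKtide they were at 2382 ± 1528 CPM (890 to 4864), overlapping the 2594 to 5196 CPM on Western diet without it. Hepatocyte markers in visceral fat summed to 2858 ± 904 CPM on Western diet with NaKtide and 328 ± 209 CPM on Western diet. They were at 299 ± 195 CPM on control diet with NaKtide and 2376 ± 1544 CPM on control diet. Of these 8 markers, Ttr, Cps1, Hnf4a, Tat and Apob were at 0 in some visceral libraries. Which cells gave this RNA was not tested. Lipid-associated macrophage markers summed to 251 to 982 CPM on Western diet with NaKtide and 632 to 2059 CPM on Western diet. They were at 1376 to 1893 CPM on control diet with NaKtide and 185 to 912 CPM on control diet. Only NaKtide on control diet had groups apart for them. Mast cell markers summed to 18.3 to 39.6, 35.2 to 71.5, 22.6 to 36.6 and 13.9 to 21.2 CPM in the same order. Adipocyte and endothelial sums overlapped in each of these comparisons with all libraries. Without the 6 libraries that held epididymis and testis markers, adipocyte sums overlapped in none of these comparisons. They were then 24955 to 36738 CPM on Western diet with NaKtide and 14748 to 20112 CPM on Western diet. On control diet they were 17262 to 20936 CPM with NaKtide and 26747 to 31123 CPM in the 2 libraries left without it. Endothelial sums then overlapped for NaKtide on Western diet only. The part of these cells in the lysosomal gene changes was not tested. In whole tissue, fewer cells of a type and less RNA per cell cannot be told apart.

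**Figure D4:**
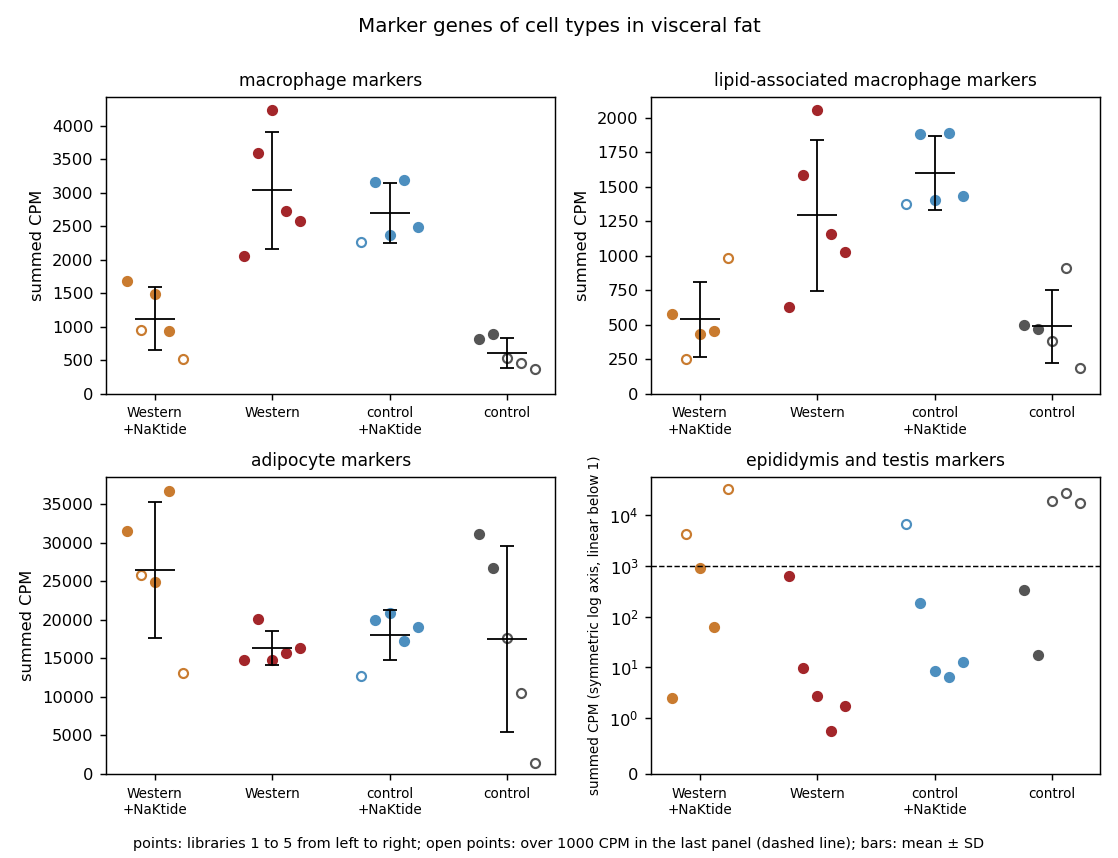
Visceral fat: summed CPM of macrophage, lipid-associated macrophage, adipocyte, and epididymis and testis markers in every library, by group; bars are mean ± SD and the dashed line marks 1000 CPM. Macrophage sums were 2051 to 4242 on Western diet, against 372 to 887 on control diet, and over 1000 CPM of epididymis and testis markers were found in 6 libraries.

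The visceral comparisons were also made without the 6 libraries that held epididymis and testis markers. Then 14 genes were higher on Western diet (background 7.88%), 10 lower with NaKtide on Western diet (background 11%), 16 higher with NaKtide on control diet (background 6.13%) and 19 lower in the interaction (background 14%). Of the calls with all libraries, 10 of 19, 6 of 6, 12 of 13 and 15 of 19 remained. The log2 change of Ctss on Western diet was then 3.08, that of Gusb 1.51 and that of Lipa 1.70. Only 2 control diet libraries were left in this fit. Without Western diet library 3, 10 of the 32 genes were called for diet, and without control diet library 3, 12 were. Ctsz, Tpp1, Npc1, Asah1, Scarb2, Grn, Atp6v1a and Atp6v1b2 each lost their call for diet without Western diet library 3, while Ctss, Gusb, Ctsl, Ctsd, Lgmn, Lipa, Hexa, Ctsk, Ctsb and Psap were called in all 10 such fits.

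In liver, 3 of the 31 tested genes were called for Western diet against control diet without NaKtide: Ctss and Tfe3 were higher, where 4.75% of all genes tested were, and Neu1 was lower, where 3.69% were. Ctss had 21.6, 10.7, 12.8, 28.2 and 19.6 CPM on Western diet, against 9.26, 13.3, 3.16, 3.47 and 11.5 CPM on control diet, a log2 change of 1.15 ± 0.33 (adjusted p = 0.031). Tfe3 (chrX:7762560-7775202) had 37.4, 32.5, 27.9, 36.0 and 27.2 CPM on Western diet, against 29.9, 24, 19.6, 23.4 and 23.7 CPM on control diet, a log2 change of 0.42 ± 0.13 (adjusted p = 0.0498). Neu1 had 59.0, 41.0, 39.7, 36.9 and 44.7 CPM on Western diet, against 55.6, 53.9, 68.0, 66.7 and 59.2 CPM on control diet, a log2 change of -0.45 ± 0.13 (adjusted p = 0.039). In all 3 the groups overlapped. Ctss, Neu1 and Tfe3 were called in 4, 3 and 3 of the 10 fits that leave out 1 library. None of them was called without control diet library 3, control diet library 4 or Western diet library 4, each left out alone. None was called either without both control diet libraries 2 and 4, which held muscle RNA. The median log2 change of the 31 genes was 0.05, against 0.03 over all genes.

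With NaKtide on Western diet, Hexa, Man2b1 and Psap were higher in liver, where 2.24% of all genes tested were higher, and Ctsl was lower, where 2.55% were. Hexa had 56.1, 78.7, 68.2, 72.2 and 65.8 CPM with NaKtide, against 49.6, 37.6, 36.5, 32.5 and 38.6 CPM without, a log2 change of 0.81 ± 0.15 (adjusted p = 0.0040). The groups were apart, and Hexa was called whichever of the 10 libraries was left out. Man2b1, the lysosomal α-mannosidase, had 108, 108, 124, 111 and 95.8 CPM with NaKtide, against 90.9, 86.0, 83.5, 77.6 and 82.1 CPM without (0.38 ± 0.10, adjusted p = 0.026). Psap had 438, 515, 462, 512 and 436 CPM with NaKtide, against 384, 316, 321, 352 and 326 CPM without (0.48 ± 0.14, adjusted p = 0.048). For both genes the groups were apart, but Man2b1 was called in 3 and Psap in 2 of the 10 fits that leave out 1 library. Ctsl had 430, 249, 218, 216 and 278 CPM with NaKtide, against 318, 434, 530, 663 and 487 CPM without (-0.80 ± 0.20, adjusted p = 0.025). Its groups overlapped through libraries 1 of both: the one with NaKtide was high and the one without was low.

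Lamp1 showed the same crossing, with 549, 321, 248, 236 and 247 CPM with NaKtide on Western diet, against 246, 413, 516, 520 and 351 CPM without. Lamp2 had 233, 105, 110, 101 and 139 CPM with NaKtide, against 118, 200, 248, 270 and 146 CPM without. For Lamp2 library 1 of each group lay within the other group's range; for Lamp1 that of Western diet without NaKtide did, and that with NaKtide lay above all 5 libraries without. When both libraries 1 were left out, a choice made after their values had been seen, 10 genes were called, 6 higher and 4 lower, where 27.4% of all genes tested were called. They were Ctsa (0.81), Lgmn (0.62), Hexa (0.98), Man2b1 (0.43), Psap (0.56) and Tfeb (0.51) as higher and Ctsl (-1.13), Lamp1 (-0.77), Lamp2 (-0.92) and Mcoln1 (-0.43) as lower, with the log2 change in brackets. By contrast 1 gene was called without library 3 of Western diet, and likewise without library 2, 3 or 4 of Western diet with NaKtide.

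On control diet, none of the 31 genes was called in liver for NaKtide, where 1.55% of all genes tested were; 5 of the 31 (16.1%) had an unadjusted p under 0.05, against 18.9% of all genes tested, and DESeq2 and voom called 0 as well. Lipa, with the smallest p, had 113, 78.4, 123, 206 and 173 CPM with NaKtide, against 83.1, 108, 59.4, 88.4 and 96.8 CPM without (0.67 ± 0.21, adjusted p = 0.11). Asah1 had 19.1, 16.9, 18.7, 20.3 and 17.9 CPM with NaKtide, against 10.2, 16.8, 10.7, 13.9 and 12.5 CPM without (0.53 ± 0.20, adjusted p = 0.17). The interaction was called for Hexa at 0.89 ± 0.21 (adjusted p = 0.025) and Ctsa at 0.90 ± 0.25 (adjusted p = 0.043), where 2.07% of all genes tested were higher, and for Ctsl at -1.01 ± 0.29 (adjusted p = 0.047), where 2.93% were lower. Ctsa had 183, 224, 289, 323 and 248 CPM on Western diet with NaKtide, 258, 147, 147, 127 and 199 CPM on Western diet, 184, 183, 187, 141 and 161 CPM on control diet with NaKtide and 213, 200, 240, 230 and 224 CPM on control diet. None of the 3 was called without library 3 of Western diet or without library 4 of Western diet with NaKtide.

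**Figure D5:**
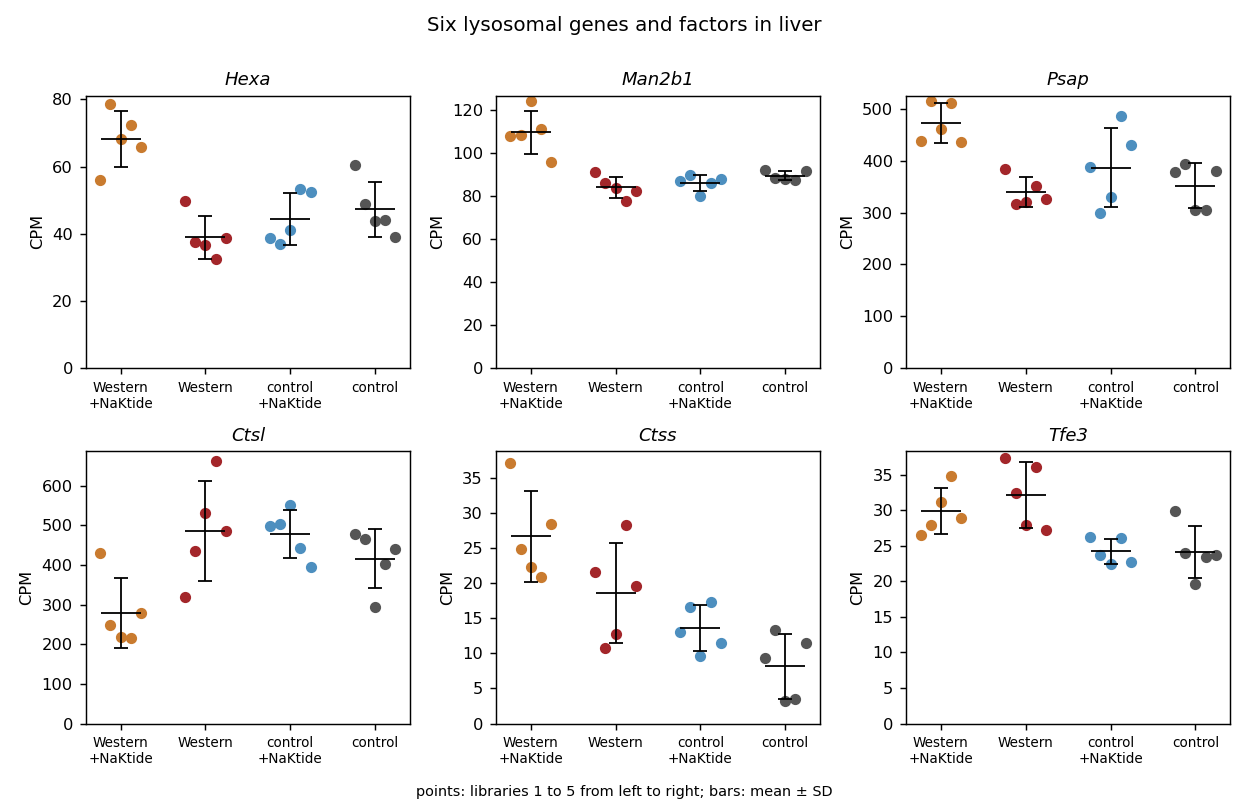
Liver: CPM of Hexa, Man2b1, Psap, Ctsl, Ctss and Tfe3 in every library, by group, with mean ± SD of 5 libraries. Hexa on Western diet was at 56.1 to 78.7 CPM with NaKtide, against 32.5 to 49.6 CPM without, and Ctsl shows the high library 1 with NaKtide at 430 CPM.

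Macrophage markers summed to 554 ± 50.1 CPM in liver on Western diet with NaKtide, against 347 ± 107 CPM on Western diet (exact permutation test, p = 0.00794, adjusted p = 0.0454). Between Western diet and control diet they were at 347 ± 107 CPM and 232 ± 84.6 CPM (exact permutation test, p = 0.111). Lipid-associated macrophage markers, of which Gpnmb was at 0 in some liver libraries, summed to 224 ± 100 CPM on Western diet, against 57.0 ± 13.8 CPM on control diet (exact permutation test, adjusted p = 0.0454). Their part in the liver changes was not tested.

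In subcutaneous fat none of the 32 genes was called in any comparison by edgeR; DESeq2 called 1 and limma's voom 8 for diet, and both called 0 in the other comparisons. For Western diet against control diet 5.61% of all genes tested were called by edgeR, and for each of the other 3 comparisons 0%. Of the 32 genes 7 had an unadjusted p under 0.05 for diet, 3 for NaKtide on Western diet, 1 for NaKtide on control diet and 3 for the interaction. These are 21.9%, 9.38%, 3.12% and 9.38% of the 32, against 23.6%, 12.3%, 6.03% and 11.2% of all genes tested. Neu1 had the smallest p for diet, with 39.8, 46.3, 37.0, 36.5 and 39.5 CPM on Western diet, against 52.6, 51.9, 47.5, 45.2 and 55.4 CPM on control diet (-0.34 ± 0.10, adjusted p = 0.055). Only library 2 of Western diet reached into the control range. Atp6v1a had 66.0, 53.8, 63.8, 71.8 and 69.4 CPM on Western diet, against 37.3, 40.7, 33.3, 52.6 and 34.3 CPM on control diet, with no overlap (0.71 ± 0.26, adjusted p = 0.11). Skeletal muscle markers differed between these groups by the amounts given at the start, with no overlap. With the muscle sum as a covariate none of the 32 genes was called either. Their median log2 change was then -0.35, against 0.08 without the covariate. Since the muscle sum went with diet, that fit can hardly tell the 2 apart, and no conclusion on diet is drawn from it. Neu1 alone was called, as lower, without control diet library 4 (adjusted p = 0.0423) or Western diet library 2 (adjusted p = 0.0427).

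For NaKtide on Western diet in subcutaneous fat, Neu1 had 49.5, 43.8, 40.9, 52.3 and 50.3 CPM with NaKtide, against 36.5 to 46.3 CPM without (0.25 ± 0.10, adjusted p = 0.32). Mitf had 9.25, 5.74, 7.05, 7.93 and 7.85 CPM with NaKtide, against 5.13, 3.60, 6.65, 4.56 and 6.51 CPM without (0.51 ± 0.21, adjusted p = 0.33). For NaKtide on control diet, Mcoln1 had 27.6, 37.2, 27.4, 28.7 and 28.0 CPM with NaKtide, against 38.6, 30.8, 34.0, 36.6 and 34.5 CPM without (-0.24 ± 0.11, adjusted p = 0.80). All 3 pairs of groups overlapped. Ctsz had 202, 201, 282, 223 and 205 CPM with NaKtide on control diet, against 255, 418, 248, 322 and 227 CPM without (-0.40 ± 0.19, adjusted p = 0.83). On Western diet Ctsz had 490, 295, 353, 379 and 250 CPM with NaKtide, against 340, 282, 249, 243 and 284 CPM without. In the interaction Neu1 had 0.44 ± 0.14 (adjusted p = 0.30) and Ctsz 0.74 ± 0.27 (adjusted p = 0.33).

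The depots were compared in a fit of all 40 fat libraries; CPM printed below were scaled within each depot. On control diet, 2 of the 32 genes were higher and 7 lower in visceral than in subcutaneous fat, where 19.9% of all genes tested were higher and 7.33% lower. Ctsk had 15.7, 17.7, 9.6, 9.70 and 2.28 CPM in visceral fat, against 39.0, 89.3, 32, 109 and 37.6 CPM in subcutaneous fat (-2.61 ± 0.57, adjusted p = 0.0038). Neu1 had 70.6, 59.3, 181, 143 and 126 CPM in visceral fat, against 45.2 to 55.4 CPM in subcutaneous fat (1.05 ± 0.24, adjusted p = 0.0049). Both genes had groups apart. Ctsb had 1467, 1286, 784, 687 and 273 CPM in visceral fat, against 1535, 2580, 1377, 2108 and 1526 CPM in subcutaneous fat (-1.16 ± 0.29, adjusted p = 0.0075). Ctsd had 890, 700, 528, 726 and 296 CPM in visceral fat, against 696, 1868, 836, 1431 and 793 CPM in subcutaneous fat (-0.98 ± 0.26, adjusted p = 0.0086). For both proteases the ranges overlapped, and visceral library 5 was lowest.

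Tfeb had 28.1, 34.3, 23.3, 30.6 and 13.4 CPM in visceral fat on control diet, against 49.0, 46.5, 82.8, 31.9 and 55.8 CPM in subcutaneous fat (-1.17 ± 0.34, adjusted p = 0.013). Scarb2 had 102, 108, 57.4, 36.5 and 26.4 CPM in visceral fat, against 105, 129, 114, 130 and 117 CPM in subcutaneous fat (-0.98 ± 0.29, adjusted p = 0.015). Ctsz and Psap were also lower in visceral fat, and Man2b1 was higher. Without the 6 visceral libraries with epididymis and testis markers none of the 32 genes was called, where 0.011% of all genes tested were, and 2 visceral control diet libraries were left. Without visceral control diet library 5 alone, 4 were called. Muscle marker sums, 59.9 to 242 CPM in visceral and 8502 to 64859 CPM in subcutaneous fat, differed between these groups too, and their part was not tested.

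The log2 change with Western diet was higher in visceral than in subcutaneous fat for 4 of the 32 genes, where 1.56% of all genes tested had a higher difference, and lower for none. Npc1 had 39.8, 31.9, 76.5, 45.1 and 47.5 CPM on Western diet, against 30.8, 32.4, 23.3, 25.6 and 13.8 CPM on control diet in visceral fat. In subcutaneous fat Npc1 had 23.8, 20.8, 27.0, 18.5 and 29.1 CPM on Western diet, against 31.9, 34.0, 40.4, 28.6 and 29.8 CPM on control diet, and the difference of the log2 changes was 1.36 ± 0.35 (adjusted p = 0.033). Npc1 was called higher on Western diet in visceral fat; in subcutaneous fat its groups overlapped and its log2 change of -0.46 ± 0.22 was not called (adjusted p = 0.20). Ctss had 103, 57.9, 44.0, 31.9 and 90.2 CPM on Western diet, against 28.1, 159, 15.2, 58.4 and 20.9 CPM on control diet in subcutaneous fat, and its difference was 2.84 ± 0.77 (adjusted p = 0.044). Ctsk had 66.3, 59.9, 49.1, 54.5 and 49.9 CPM on Western diet in subcutaneous fat, within its control range, and 43.1, 86.5, 111, 75.8 and 73.6 CPM on Western diet in visceral fat (difference 2.92 ± 0.77, adjusted p = 0.037). Lipa had 84.3, 39.1, 48.2, 40.1 and 81.9 CPM on Western diet, against 45.9, 82.7, 40.4, 60.7 and 43.7 CPM on control diet in subcutaneous fat (difference 2.13 ± 0.57, adjusted p = 0.039). For these 3 genes the subcutaneous groups overlapped. Without the 6 visceral libraries none was called, where 0.0055% of all genes tested were. None was called either when visceral control diet library 3, 4 or 5, visceral Western diet library 3, subcutaneous control diet library 2, or subcutaneous Western diet library 2 or 4 was left out, and 12 and 11 were called without visceral control diet library 1 and 2.

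Of the factors, Tfe3 in liver on Western diet and Tfeb between depots gave the calls described above, and no other comparison called one with all libraries. Tfeb (chr17:47737030-47792419) in visceral fat had 21.5, 16.8, 24.5, 27.1 and 37.0 CPM on Western diet with NaKtide, 22, 36.2, 27.3, 28.1 and 23.5 CPM on Western diet, 28.3, 35.5, 32.6, 38.6 and 30.8 CPM on control diet with NaKtide and 13.4 to 34.3 CPM on control diet. All 4 groups overlapped, and the log2 change with diet was 0.08 ± 0.23 (adjusted p = 0.82). Tfe3 in visceral fat had 52.0, 45.4, 56.4, 74.9 and 123 CPM on Western diet with NaKtide, 62.9, 78.0, 80.0, 79.3 and 79.3 CPM on Western diet, 82.7, 76.0, 69.7, 84.6 and 80.8 CPM on control diet with NaKtide and 78.7, 72.6, 82.1, 118 and 67.8 CPM on control diet. Its 2 highest values, 123 and 118 CPM, were in libraries with epididymis and testis markers. Mitf (chr6:97807052-98021349) had 10.2, 9.16, 7.80, 5.57 and 1.22 CPM on Western diet with NaKtide, 6.76, 8.14, 15.7, 8.64 and 8.78 CPM on Western diet, 6.06, 11.0, 6, 14.0 and 6.90 CPM on control diet with NaKtide and 9.25, 6.55, 4.31, 1.94 and 1.34 CPM on control diet. For Mitf the log2 change with diet was 1.04 ± 0.52 (adjusted p = 0.14).

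In subcutaneous fat, Tfeb had 31.6, 25.6, 23.2, 24.6 and 22.6 CPM on Western diet with NaKtide, 25.4, 30.4, 25.0, 23.7 and 24.2 CPM on Western diet, 29.3, 169, 26.8, 37.0 and 33.8 CPM on control diet with NaKtide and 49.0, 46.5, 82.8, 31.9 and 55.8 CPM on control diet. All Western diet libraries without NaKtide were below all control diet libraries, with a log2 change of -1.05 ± 0.40 that was not called (adjusted p = 0.12). The value of 169 CPM belongs to the library with the highest muscle marker sum. Tfe3 had 73.1, 61.1, 69.1, 58.9 and 55.4 CPM on Western diet with NaKtide, 64.7, 61.8, 65.8, 68.6 and 70.2 CPM on Western diet, 45.6, 21.8, 64.4, 67.1 and 53.2 CPM on control diet with NaKtide and 64.4, 62.3, 56.5, 60.8 and 57.7 CPM on control diet. Mitf had 6.03, 7.06, 8.42, 5.84 and 5.97 CPM on control diet with NaKtide and 7.13, 10.4, 10.1, 5.91 and 6.16 CPM on control diet, beside the Western diet values above. None of the factors was called in this depot.

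In liver, Tfeb had 16.1, 17.4, 22, 21.1 and 16.7 CPM on Western diet with NaKtide, 19.2, 15.5, 11.0, 11.7 and 16.1 CPM on Western diet, 14.6, 13.8, 13.6, 11.8 and 15.5 CPM on control diet with NaKtide and 15.2, 12.8, 14.2, 18.2 and 14.3 CPM on control diet. Tfe3 had 26.5, 27.9, 31.1, 34.8 and 28.9 CPM on Western diet with NaKtide and 26.2, 23.8, 22.5, 26.1 and 22.7 CPM on control diet with NaKtide, beside the values without NaKtide above. Mitf had 1.37, 1.95, 1.88, 1.49 and 2.65 CPM on Western diet with NaKtide, 2.21, 1.48, 1.80, 1.18 and 1.75 CPM on Western diet, 0.985, 1.62, 1.27, 1.91 and 2.63 CPM on control diet with NaKtide and 1.66, 1.40, 1.26, 1.73 and 1.37 CPM on control diet. At a few CPM, Mitf in liver rests on few reads, and all its groups overlapped.

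Other genes of the pathway were counted from lists that hold none of the 32. The shares of all genes called, given above for each comparison, are the background for these counts. In visceral fat on Western diet, 8 of 27 other lysosomal hydrolases and activators were higher and none lower, led by the phospholipase gene Pla2g15 (2.24 ± 0.38, adjusted p = 0.00098) and Galns, which removes sulfate from glycosaminoglycans (1.09 ± 0.20, adjusted p = 0.0015). Of 13 other membrane proteins 5 were higher and 1 lower, among them the metal transporter Slc11a1 (2.69 ± 0.42) and Laptm5 (2.58 ± 0.46), both known from immune cells, and the sialic acid transporter Slc17a5 (-1.56 ± 0.56). Of 16 other V-ATPase subunits 3 were higher, with Atp6v0a1 (1.68 ± 0.23, adjusted p = 0.00022) and Atp6v0a2 (0.62 ± 0.17) first, and 2 were lower, Atp6v1g1 (-2.0 ± 0.55) and Atp6v1d (-0.91 ± 0.27). Of 7 genes that tag hydrolases with mannose 6-phosphate or sort them, Gnptab (1.71 ± 0.39) and Nagpa (0.70 ± 0.17) were higher and Sort1 (-0.64 ± 0.17) lower. Nutrient sensing upstream of the factors and autophagy gave 1 lower gene each, Rragb of 16 (-3.43 ± 1.06) and Gabarapl2 of 19 (-0.89 ± 0.24). The list for nutrient sensing was drawn up with Tfec, another factor of the MiT/TFE family, in it. Of 3 inhibitors of cysteine proteases, Cst6 was lower (-2.87 ± 0.72). Over all genes tested 10.5% were higher and 14.3% lower, so the 2 of 16 V-ATPase genes that were lower are near the background.

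With NaKtide on Western diet in visceral fat, 3 of the 27 hydrolases were lower, among them Sgsh (-0.90) and Galns (-0.79), with 4 of 13 membrane proteins, among them Slc11a1 (-1.85) and the amino acid transporter Slc36a1 (-1.79), and 2 of 16 V-ATPase subunits, Atp6v0a1 (-1.79) and Tcirg1 (-1.54). Sort1 (0.84), Gabarapl2 (0.85) and Cst6 (2.22) were higher, Gnptab (-1.38) and the autophagy gene Uvrag (-0.72) were lower, and none of 16 nutrient sensing genes was called. On control diet NaKtide gave higher values for 5 of 27 hydrolases, among them Galns (1.32) and Sgsh (1.17), for 5 of 13 membrane proteins, among them Slc11a1 (2.53) and Laptm5 (2.57), and for the V-ATPase genes Atp6v0a1 (1.46) and Tcirg1 (1.39). Gnptab (1.38), Nagpa (0.61), Uvrag (0.79) and Cstb (0.99) were higher too, and Sort1 (-0.59) and Cst6 (-2.64) were lower. In the interaction 9 of 27 hydrolases and 6 of 13 membrane proteins were lower, with Slc11a1 at -4.38 and Atp6v0a1 at -3.25 on the log2 scale. The backgrounds were 6.95% lower for NaKtide on Western diet, 5.26% higher for NaKtide on control diet and 13.4% lower for the interaction, and the 3 of 27 hydrolases and 2 of 16 V-ATPase genes lower with NaKtide on Western diet differ from theirs by a few genes at most.

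In liver on Western diet, 2 of 15 nutrient sensing genes were higher, Fnip2 (1.10 ± 0.23, adjusted p = 0.004) and Mtor, the kinase of mTORC1 (0.62 ± 0.14, adjusted p = 0.0089). Of 19 autophagy genes 2 were higher, Ulk1 (0.80 ± 0.17) and Sqstm1 (0.46 ± 0.11), and 3 lower, among them Gabarapl1 (-0.71 ± 0.16) and Map1lc3b (-0.57 ± 0.15). Of 27 other hydrolases and activators Pla2g15 (0.41 ± 0.13) was higher and Gm2a (-0.59 ± 0.13) and Ctsf (-0.92 ± 0.25) were lower. With 4.75% of all genes tested higher and 3.69% lower on Western diet, these counts exceed the background by a few genes at most. With NaKtide on Western diet the V-ATPase gene Atp6v0d2 (2.48 ± 0.51, adjusted p = 0.0072) and the tetraspanin gene Cd63 (2.12 ± 0.47, adjusted p = 0.011) were higher, and Sort1 (-1.22 ± 0.29) and Ulk1 (-0.58 ± 0.17) were lower. On control diet NaKtide changed Fnip2 alone of these lists (1.00 ± 0.23, adjusted p = 0.027). In subcutaneous fat, Western diet gave higher values for Atp6v0a1 (0.77), Pla2g15 (1.14), Gnptab (0.91) and Optn (0.92). Values were lower for Rragd (-5.86), Map1lc3b (-0.62) and Cst6 (-5.10). For this comparison 5.61% of all genes tested were called, in either direction. Skeletal muscle markers there summed to 87.3 to 272 CPM on Western diet and 8502 to 64859 CPM on control diet. Their part in these changes was not tested. No gene of the lists was called for NaKtide in this depot.

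Exons of several of the 32 genes overlap those of a neighbour on the opposite strand: Ctsa with Pltp and Neurl2, Ctsb with Fdft1, Ctsz with Nelfcd, Grn with Fam171a2, Hexa with Tmem202, Lamp1 with Grtp1 and Npc1 with Rmc1. Ctsd overlaps Gm49369 and Glb1 overlaps Tmppe on the same strand. The libraries were stranded, but whether strand was used in counting is not given in the labels, so reads of these stretches may have been split or shared.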

How the data were processed

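RNA-seq of 60 mouse libraries (stranded mRNA kit, pairs of 50 bases) was given as 3 tables of 54232 gene IDs each. The authors deposited raw counts, a normalized signal (counts divided by a size factor per library) and FPKM. Per the submitters' processing notes, HISAT2 2.1.0, Trimmomatic 0.38 and DESeq2 1.20.0 were used with the GRCm38 build; counting program and annotation: not given in the sources used here.

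Tests used the counts (edgeR 4.0.16, R 4.3.3). Genes were filtered with filterByExpr, libraries scaled by TMM, and groups compared by the quasi-likelihood test, with Benjamini-Hochberg adjusted p of 0.05 over all genes tested (12991 in liver, 15226 in subcutaneous fat, 17235 in visceral fat, 17788 in both fats). The biological coefficient of variation was 0.251, 0.346, 0.675 and 0.558. One model of 4 groups was fitted per tissue and 1 of the 40 fat libraries. CPM were scaled by TMM. FPKM served to compare genes; the signal table was only checked. Marker sums were compared with exact permutation tests in scipy 1.17.1. The steps were tested on simulated data. Coordinates come from GENCODE M21.

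Members and lists were chosen with earlier results of these data known. Values in every library are given for up to 6 called members per comparison, smallest p first, for the 2 with the smallest p where none is called, and for the 3 factors; up to 2 rising and 2 falling genes are named per list. Alternatives were TMM against other scaling, no filter, DESeq2 1.42.0, limma 3.58.1 voom, a replicate block, 2 groups alone and libraries left out.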

Additional observations from a re-analysis of the deposited data

Results flagged for a closer look

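Among 148 sets of 5 library values, 16 held 1 library whose gap to the nearest other exceeded 0.71 of the range, Dixon's 95% critical value; chance gives about 1 set in 20. Western diet library 3 of visceral fat was the highest of its group for Ctss (478 CPM), Gla (26.4), Gusb (249), Lipa (309), Atp6v1b2 (266) and Mitf (15.7), and its macrophage marker sum of 4242 CPM was the highest of all. Library 1 of Western diet with NaKtide in visceral fat was high for Ctsk (127 CPM) and Hexa (231), library 2 of that group was low for Ctsd (704), and Western diet library 1 was low for Tfe3 (62.9). In visceral control diet, library 4 was high for Tfe3 (118 CPM) and library 5 low for Atp6v1b2 (81.3), and library 1 of control diet with NaKtide was high for Neu1 (76.6); all 3 held epididymis and testis markers. In subcutaneous fat, Tfeb was high in library 2 of control diet with NaKtide (169 CPM) and in Western diet library 2 (30.4), and in liver Ctsl was high in library 1 of Western diet with NaKtide (430).

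The NaKtide effect in visceral fat was lower on Western diet than on control diet for 18 genes by the interaction test, in log2 units: Ctss (-5.64), Lipa (-4.02), Ctsk (-4.00), Gusb (-3.09), Lgmn (-2.92), Ctsz (-2.38), Ctsd (-2.25), Atp6v1a (-2.11), Ctsb (-2.08), Ctsl (-1.95), Hexa (-1.61), Atp6v1b2 (-1.59), Gla (-1.55), Psap (-1.55), Scarb2 (-1.47), Grn (-1.39), Tpp1 (-1.21) and Asah1 (-0.90). For Neu1 it was higher (1.58), a call that was lost without the 6 visceral libraries with epididymis and testis markers. In liver the same test was passed by Ctsa (0.90), Hexa (0.89) and Ctsl (-1.01). The log2 change with Western diet was higher in visceral than in subcutaneous fat for Ctsk (2.92), Ctss (2.84), Lipa (2.13) and Npc1 (1.36).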

How the results depend on the processing

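No result changed direction past a test under any alternative, and of 1582 recomputed values of called genes 1278 kept their call and 304 lost it. Without a filter on low counts, 1 gene was called for diet in liver, 2 for NaKtide on Western diet in liver, 10 for diet in visceral fat and 0 for the difference between depots. DESeq2 called 6 in the liver interaction, 1 for diet in subcutaneous fat and 13 for the difference between depots. Voom with quality weights called 12 for NaKtide on Western diet and 10 for the interaction in liver, 8 for diet in subcutaneous fat, and 18 and 21 for NaKtide on Western and on control diet in visceral fat. Fitting the 2 groups alone called 0 for diet and 1 for NaKtide on Western diet in liver, 3 for diet in subcutaneous fat and 11 for diet in visceral fat. Without control livers 2 and 4, 0 were called for diet in liver and 1 in the interaction. Without libraries 1 of both Western diet groups, 10 were called for NaKtide on Western diet in liver and 12 in the interaction. Without the 6 visceral libraries with epididymis and testis markers, 10 were called for NaKtide on Western diet, 0 for the depots on control diet and 0 for the difference between depots. The share of all genes called moved with the setting too, and reached 27.4% for NaKtide on Western diet in liver without libraries 1. For no filter, DESeq2, voom, 2 groups alone and single libraries left out, that share is not given here. Their counts are therefore not set against a background. The cause of these differences was not tested.

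With the replicate number as a block, 1, 1, 0 and 0 genes were called in liver, 0 in all subcutaneous comparisons, 15, 6, 12 and 18 in visceral fat, 9 for the depots and 3 for their difference. Within a tissue, same-numbered libraries of different groups correlated at -0.71 to 0.78, and 9 of 90 correlated best with their own number. Such pairs are of different groups, so they cannot show whether 1 mouse gave several tissues. Between tissues, same-numbered libraries of the same group correlated at -0.48 to 0.40. Whether equal numbers mark the same mouse was not settled, and the main depot fit treated all libraries as unpaired. Leaving out 1 library gave 0 to 2, 1 to 8, 0 to 1 and 0 to 7 calls in liver, 0 to 1 for diet and 0 to 0 for the other comparisons in subcutaneous fat, 10 to 20, 5 to 9, 10 to 17 and 16 to 20 in visceral fat (each in the order diet, NaKtide on Western diet, NaKtide on control diet, interaction), 4 to 14 for the depots and 0 to 12 for their difference. At these depths Ctsk in liver, with 0 to 9 reads per library, could not be tested, and Mitf there, with 4 to 17 reads, was imprecise.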
